A study of Mus musculus with 16 samples.

Results

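The effect of cisplatin on RNA levels was measured in 16 end-stage subcutaneous melanomas, 8 from mice given cisplatin and 8 from mice given the vehicle, PBS, with both tumour genotypes pooled. All 16 libraries of the series were used. The members of each arm were taken from the sample labels, and no measured value set which arm a library joined. The comparison itself was chosen with earlier results of these data known. Each arm held 4 tumours of the wild-type (WT) B16F10 line, a pigmented mouse melanoma line, and 4 of BdP, a B16F10 derivative deficient in Pros1, the gene of protein S. Whether BdP was 1 clone is not given in the sources used here.

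Every mouse was C57BL/6J, aged 8 weeks and of either sex, and carried 100000 implanted cells in the right flank. Cisplatin was injected into the peritoneum at 5 mg/kg once daily for 3 days, in 2 rounds on days 1 to 3 and days 7 to 9, the first 8 days after implantation. The PBS groups received the vehicle in its place. Tumours were taken at end stage and dissociated, so the RNA held that of host cells as well as melanoma cells. The labels number 4 replicates per group and do not say where each tumour came from, so p-values measure the spread between these libraries.

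Cisplatin is a platinum drug that crosslinks DNA. Crosslinks block replication and transcription and activate the kinases ATR and ATM, which stabilise p53. The p53 protein induces genes of cell cycle arrest, such as Cdkn1a, genes of apoptosis, such as Bax and Bbc3, and its own inhibitor Mdm2. A separate stress pathway, the unfolded protein response, raises the folding enzymes and chaperones of the endoplasmic reticulum when unfolded protein builds up there, through the sensors ATF6, IRE1 and PERK.

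The 16 libraries held 10051843 to 27055771 reads in genes. Levels are given in FPKM as deposited by the authors, which are fragments per kilobase of gene scaled by 1 factor per library. That factor matched a median-of-ratios size factor rather than the total of reads. Differences are given as cisplatin minus PBS on the log2(FPKM + 1) scale with a moderated standard error, from a model with genotype as a covariate. The melanocyte genes Pmel (1043 to 2601 FPKM), Mlana (554 to 977) and Tyrp1 (1402 to 3468) were abundant in all 16 libraries, as the label of the tumours requires, whereas the epithelial genes Epcam and Krt14 did not exceed 1.08 and 1.75 FPKM. Leukocyte content varied widely, with Ptprc, the pan-leukocyte gene of CD45, at 0.190 to 20.9 FPKM. The share of mitochondrial reads was 2.03% to 5.06% in 13 libraries. It was 76.9% for WT PBS 1, where 2322202 reads remained, and 12.2% and 21.7% for replicates 3 and 4 of WT cisplatin. More than 40 reads fell on Y-linked genes in 3 PBS and 4 cisplatin libraries, and 0 to 16 in the others. Xist, a gene expressed in female cells, was at most 0.0290 FPKM in the former and 0.314 to 5.17 FPKM in the latter. The labels do not give the sex of each host. In bulk tumours, fewer cells of a type and less RNA per cell cannot be told apart.

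Across 12319 genes tested, 1 gene differed between the arms at a limma adjusted p below 0.05, which is 0.00812% of the genes. That gene was Procr, which was lower under cisplatin. No gene was called higher. At an unadjusted p below 0.05 were 774 genes (6.28%), 413 of them higher (3.35%) and 361 lower (2.93%). These shares are the background for the counts of each gene list below, and 48.0% of all genes had a positive difference. The median difference over all genes was -0.01, the middle 50% of genes lay between -0.10 and 0.09, and 0.268% of genes differed by more than 1 log2 unit. The 2 genotypes were pooled although their differences between arms had the same sign for only 49.7% of genes. The interaction of treatment with genotype passed the threshold for 0 genes, with 691 at an unadjusted p below 0.05 and a smallest adjusted p of 0.0795.

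Procr encodes the endothelial protein C receptor, which presents protein C to thrombin and, with protein S as a cofactor of the activated enzyme, belongs to the anticoagulant pathway. It lies on chromosome 2 from 155751117 to 155755471 (GRCm38, plus strand; ENSMUSG00000027611). Its level in the WT tumours under PBS was 5.04, 3.52, 4.49 and 3.90 FPKM, and in the BdP tumours under PBS 6.17, 4.24, 4.67 and 5.34 FPKM. Under cisplatin it was 2.06, 1.97, 2.33 and 3.10 FPKM in WT and 2.51, 2.56, 3.28 and 2.86 FPKM in BdP. Every cisplatin library lay below every PBS library. Procr fell by 0.66 on the log2 scale (SE 0.0932, adjusted p = 0.0351), from 4.67 ± 0.845 to 2.58 ± 0.470 FPKM (SD, n = 8), a 1.81-fold difference of the means. The difference was -0.64 in WT and -0.68 in BdP, and the interaction was not called (adjusted p = 0.983). The separation of the arms was shared with 1 other gene, 2610318N02Rik, so 0.0162% of genes had all 8 cisplatin libraries below all 8 PBS libraries, and 0 genes had them all above.

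The reads behind each Procr value numbered 20 in WT PBS 1 and at most 379. The call was lost when any 1 of 12 of the 16 libraries was left out (adjusted p up to 0.135, with the same direction) and kept without WT PBS 2, WT PBS 4, WT cisplatin 4 or BdP PBS 2. The call was also lost under rescaling to TPM, which fixes the sum of length-scaled values in each library (-0.40, adjusted p = 0.686). On that scale the median difference of all genes was 0.37. Under TPM over nuclear genes without haemoglobin, where that median was 0.13, the call was lost too (-0.65, adjusted p = 0.972). The same held with no filter on low values (adjusted p = 0.106) and with 4 group means (adjusted p = 0.0720).

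Cbr2, a carbonyl reductase, had the next smallest p. It ranged from 4.74 FPKM through a median of 13.2 to 19.6 under PBS, and from 1.87 through 4.31 to 7.43 under cisplatin. The arms overlapped when pooled, but within each genotype all 4 cisplatin libraries lay below all 4 PBS libraries, as was the case for 6 genes (0.0487%). The difference was -1.21 ± 0.207 and was not called (adjusted p = 0.158). In the opposite direction, 3 genes (0.0244%) had all cisplatin libraries above all PBS libraries within both genotypes, namely Tspyl4, Dync1i2 and D630003M21Rik, with differences of 0.29, 0.25 and 0.55. Of these, D630003M21Rik stood at or under 0.264 FPKM in every BdP library, close to no signal.

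**Figure D1:**
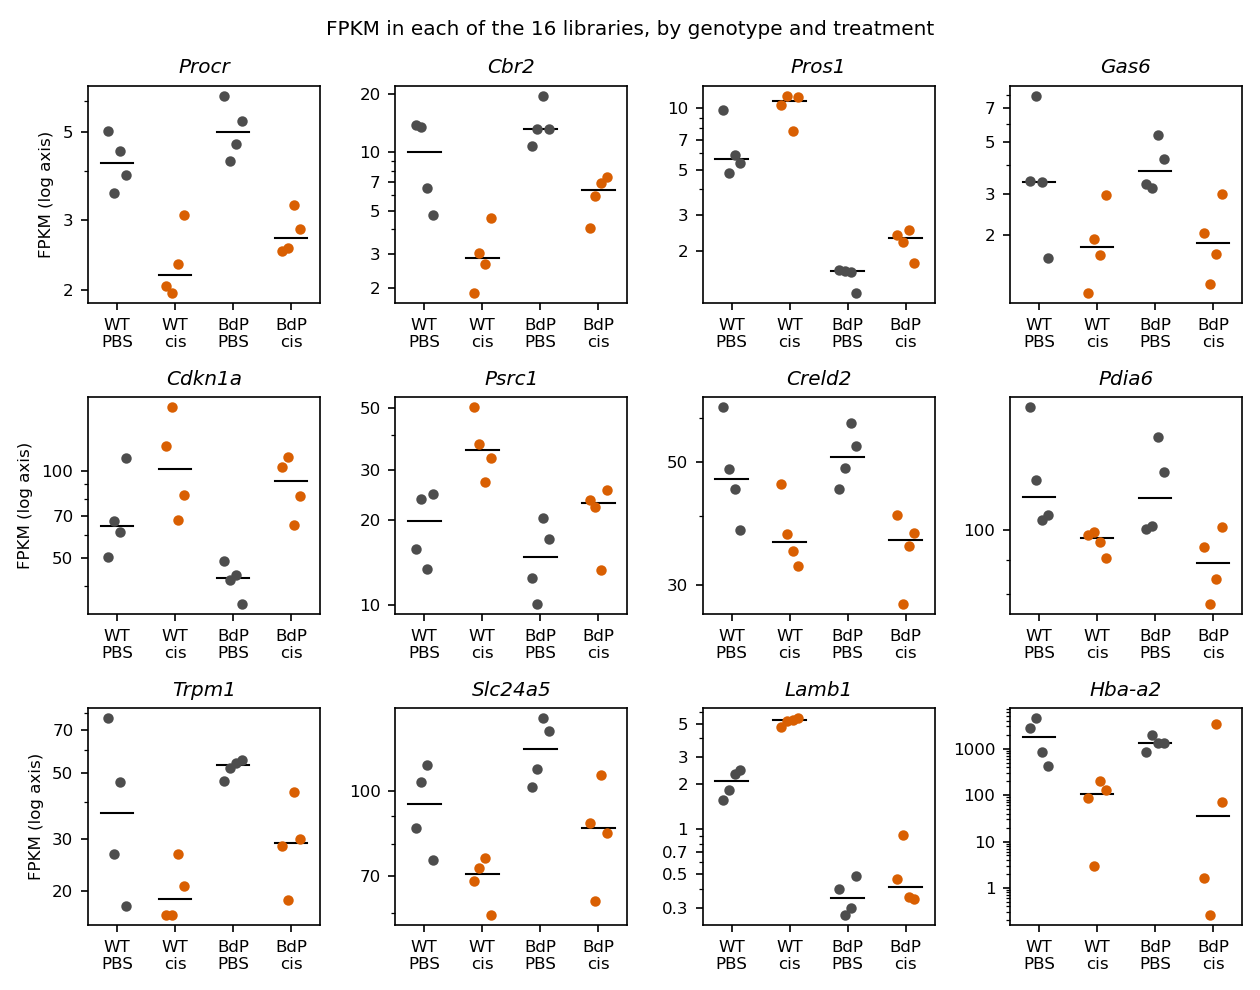
FPKM of 12 genes in each of the 16 libraries on a log axis, in panels by gene. Dots are libraries, grey for PBS and orange for cisplatin, and the short lines are group medians. Procr is the gene in which all 8 cisplatin libraries (1.97 to 3.28 FPKM) sit below all 8 PBS libraries (3.52 to 6.17 FPKM), while the arms overlap in the other panels.

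Targets of p53 stood higher under cisplatin by small amounts. Of 33 list genes, 31 passed the filter on low values. Of these 31, 27 had a positive difference, compared with 48.0% of all genes, and 8 were higher at an unadjusted p below 0.05, compared with 3.35% of all genes. None of the 31 was called. Their median difference was 0.18, against -0.01 over all genes, and it was 0.22 in WT and 0.10 in BdP. Without WT PBS 1, the library with 76.9% mitochondrial reads, the median was 0.11. Without the 3 libraries rich in mitochondrial reads it was 0.15, with 21 of 31 members positive, 14 higher and 2 lower at an unadjusted p below 0.05.

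Cdkn1a, the gene of the cyclin-dependent kinase inhibitor p21, lies on chromosome 17 from 29090976 to 29100727 (plus strand; ENSMUSG00000023067). Its level under PBS was 50.3, 67.3, 61.6 and 111 FPKM in WT and 48.8, 41.7, 43.6 and 34.5 FPKM in BdP. Under cisplatin it was 122, 167, 67.5 and 82.4 FPKM in WT and 103, 112, 65.1 and 81.7 FPKM in BdP. Within BdP all 4 cisplatin libraries were above all 4 PBS libraries, whereas in WT 1 PBS library reached the cisplatin range. The share of all genes with such a separation within 1 genotype was not counted. The pooled difference was 0.82 ± 0.201, a 1.75-fold ratio of the means, with a limma adjusted p of 0.519 over all genes. In an exact two-sided permutation test of this gene alone, with labels permuted within genotype, p was 0.00449, where 0.000408 is the smallest possible and 10 such tests were run on genes and library shares. The difference was 0.57 in WT and 1.07 in BdP, and the interaction was not called (adjusted p = 0.864).

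Psrc1, which encodes a spindle protein, ranged from 10.1 FPKM through a median of 16.5 to 24.7 under PBS and from 13.3 through 26.5 to 50.3 under cisplatin. The arms overlapped, with 5 cisplatin libraries above the highest PBS library, and the difference was 0.69 ± 0.188 (adjusted p = 0.519). Phlda3, an inhibitor of AKT signalling, ranged from 42.6 through 55.0 to 74.5 FPKM under PBS and from 50.5 through 85.2 to 125 under cisplatin. Its difference was 0.60 ± 0.194, and 5 cisplatin libraries exceeded the PBS maximum. Trp53inp1, a cofactor of p53 and of autophagy, showed 0.60 ± 0.201 with the arms overlapping.

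The other p53 targets at an unadjusted p below 0.05 were Ccng1 (0.50 ± 0.194), a cyclin that regulates p53 through Mdm2, the repair nuclease gene Ercc5 (0.37 ± 0.133), the death receptor gene Tnfrsf10b (0.32 ± 0.129) and Gtse1 (0.43 ± 0.178). Some textbook targets did not pass that level. Mdm2 showed 0.10 ± 0.138, Bax 0.20 ± 0.0934 and Bbc3, the gene of PUMA, 0.40 ± 0.199. The difference of Bbc3 was larger than those of Ercc5 and Tnfrsf10b, as was its SE. Gdf15, Xpc, Ei24 and Triap1 were the 4 members with a negative difference, from -0.03 (Xpc) to -0.28 (Triap1). Members of the list thus differed in both size and sign.

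The mean log2(FPKM + 1) over the 31 p53 targets ran from 3.20 through a median of 3.43 to 3.69 under PBS and from 3.49 through 3.69 to 3.81 under cisplatin. All 8 cisplatin libraries lay above the PBS median, and 4 above the PBS maximum. BdP cisplatin 3 was the lowest of the cisplatin arm, with Cdkn1a at 65.1, Psrc1 at 13.3 and Trp53inp1 at 4.84 FPKM. Within the cisplatin arm, the 4 libraries with more than 40 Y-gene reads had Cdkn1a at 103 to 167 FPKM and Phlda3 at 85.7 to 125 FPKM, and the other 4 had 65.1 to 82.4 and 50.5 to 84.8 FPKM, with no overlap. In this arm the division is that of replicates 1 and 2 against replicates 3 and 4 of both genotypes. The mitochondrial share divided the same way, at 2.05% to 2.99% against 3.46% to 21.7%. So did the haemoglobin share, at 0.00199% to 0.128% against 0.152% to 6.46%. Y-gene reads, replicate number and these shares therefore cannot be told apart. Genes outside the list, such as Tubb3 and Hip1, also had no overlap, and the share of all genes without overlap was not counted. Psrc1 (22.3 to 50.3 against 13.3 to 33.3 FPKM), Trp53inp1 (10.8 to 15.5 against 4.84 to 11.9 FPKM) and the list mean (3.64 to 3.81 against 3.49 to 3.72) overlapped under the same division. In the PBS arm Cdkn1a overlapped too, at 34.5 to 111 FPKM in the 3 libraries with more than 40 Y-gene reads and 41.7 to 67.3 in the other 5. With that division added to the model, a setting chosen after seeing the data, the median of the list was 0.17 and the same number of members, 8, was at an unadjusted p below 0.05.

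**Figure D2:**
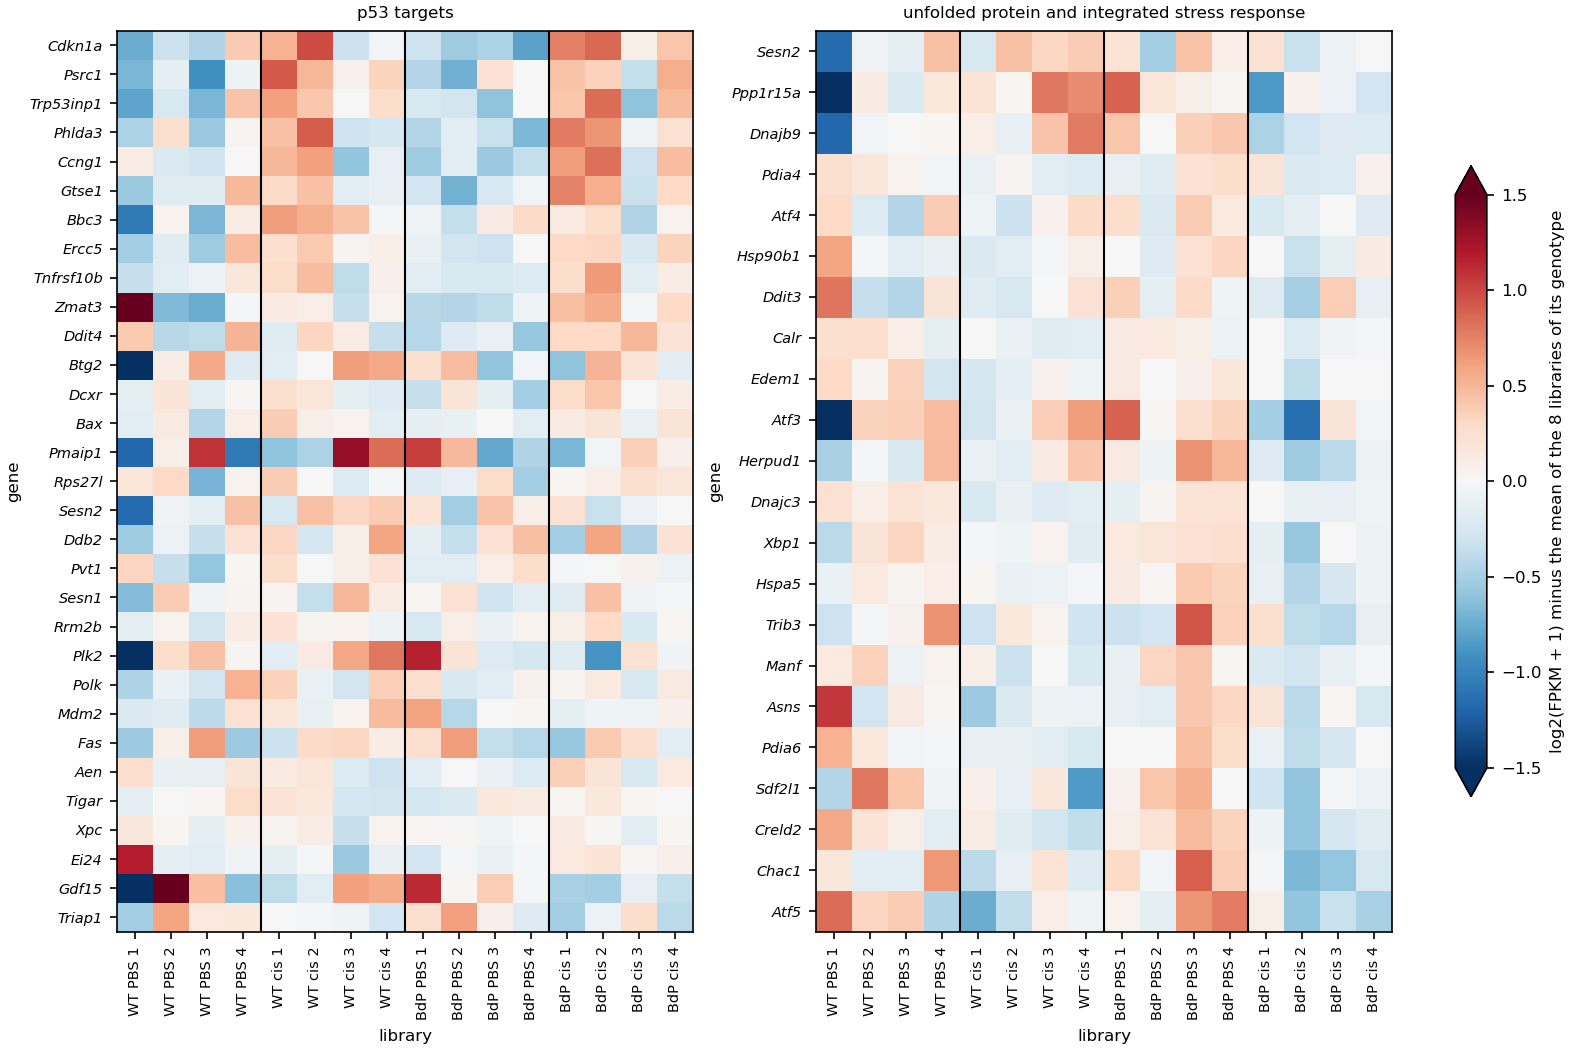
Each cell is log2(FPKM + 1) minus the mean of the 8 libraries of the same genotype, for 31 p53 targets and 22 genes of the unfolded protein and integrated stress response (rows), in the 16 libraries (columns, by group). Cdkn1a, Psrc1 and Phlda3 are higher in most cisplatin libraries and Creld2 and Pdia6 lower, with exceptions such as BdP cisplatin 3 among the p53 targets.

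Genes of the unfolded protein and integrated stress response stood lower under cisplatin. All 22 genes of the list passed the filter. Of these, 19 had a negative difference, 11 were lower at an unadjusted p below 0.05, compared with 2.93% of all genes, and 0 were higher. None was called, and the median difference was -0.24. The 11 were Creld2, Dnajc3, Pdia6, Atf5, Chac1, Hspa5, Manf, Xbp1, Sdf2l1, Calr and Edem1.

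Several of these genes are textbook targets of ATF6 and XBP1 through the endoplasmic reticulum stress element, a promoter motif made of CCAAT, 9 bases of any kind and CCACG. RefSeq promoters of mouse build GRCm38.p6, from 250 bases before to 50 after the start of each gene, were searched on both strands for this motif. The search was chosen after the values of the list were seen. The motif was present in 6 of the 21 list genes that had a promoter in the table and in 37 of all 27025 genes (0.137%). The 6 stretches are shown because their genes include 3 of the 4 list members with the smallest p. Each gives 30 bases on either side of the motif, 5′ to 3′ along the gene's strand, with the motif in capitals (in Creld2 and Calr it is on the opposite strand, so the capitals begin with CGTGG and end with ATTGG).

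Creld2: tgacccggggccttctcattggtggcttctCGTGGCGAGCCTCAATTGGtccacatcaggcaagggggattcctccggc
Dnajc3: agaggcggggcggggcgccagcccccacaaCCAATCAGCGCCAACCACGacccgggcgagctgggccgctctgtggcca
Pdia6: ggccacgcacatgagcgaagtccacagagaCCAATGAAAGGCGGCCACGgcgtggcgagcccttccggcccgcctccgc
Hspa5: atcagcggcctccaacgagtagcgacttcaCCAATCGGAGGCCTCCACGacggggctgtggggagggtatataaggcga
Calr: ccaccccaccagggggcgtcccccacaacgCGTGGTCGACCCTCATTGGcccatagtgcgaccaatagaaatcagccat
Hsp90b1: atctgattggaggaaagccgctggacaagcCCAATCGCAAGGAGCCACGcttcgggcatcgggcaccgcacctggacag

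The stretches lie at chr15:88819490-88819568 (Creld2, plus strand), chr14:118937797-118937875 (Dnajc3, plus), chr12:17266461-17266539 (Pdia6, plus), chr2:34771995-34772073 (Hspa5, plus), chr8:84847045-84847123 (Calr, minus) and chr10:86705608-86705686 (Hsp90b1, minus). All are upstream of the start, with the near end of the motif 47 (Hspa5) to 194 (Hsp90b1) bases away from it. Hsp90b1 holds a second match, on the opposite strand and 89 bases from the start, which lies outside the stretch shown. A second motif of the pathway, ATTGG and CCACG with 1 base of any kind between them, was also searched on both strands and was found in 12 genes (0.0444%), of which Herpud1 was in the list. A match describes letters in a window, and binding was not measured here.

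All 6 list genes with the first motif had a negative difference (median -0.26), 5 of them at an unadjusted p below 0.05. Hsp90b1, the gene of the chaperone GRP94, was the exception at -0.16 ± 0.117. Of the 10 tested genes outside the list that carry the motif, 7 had a negative difference, 0 had an unadjusted p below 0.05, and the median was -0.01. These 10 were not independent of each other or of the list. They include Xlr3a, Xlr3b and Xlr3c of the same family, and Alg12, which lies next to Creld2 on chromosome 15. The motif thus occurred both in genes that were lower and in genes near the median of all genes.

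Creld2, a secreted folding factor of the endoplasmic reticulum, ranged from 37.7 FPKM through a median of 48.7 to 63.0 under PBS and from 27.7 through 36.1 to 45.7 under cisplatin. In 6 of 8 cisplatin libraries it was below the lowest PBS library, and the difference was -0.45 ± 0.112 (adjusted p = 0.519). Pdia6, a disulfide isomerase, ranged from 101 through 112 to 154 FPKM under PBS and from 77.1 through 95.1 to 101 under cisplatin. The arms overlapped at their edge, with 7 of 8 cisplatin libraries below the PBS minimum, and the difference was -0.34 ± 0.0966 (adjusted p = 0.582). Dnajc3, the co-chaperone P58IPK, ranged from 24.9 through 28.1 to 31.7 under PBS and from 20.7 through 23.8 to 27.3 FPKM under cisplatin. Of the cisplatin libraries, 4 of 8 lay below the PBS minimum, and the difference was -0.25 ± 0.0625.

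Hspa5, the gene of BiP, the main chaperone of the compartment, averaged 292 ± 41.6 FPKM under PBS and 242 ± 19.3 under cisplatin (SD, n = 8), a difference of -0.27 ± 0.0901. Manf, a secreted stress protein, showed -0.27 ± 0.0926 and Sdf2l1 showed -0.43 ± 0.181. Xbp1, the factor that IRE1 splices, showed -0.26 ± 0.106. These 4 belong to the folding branch of the response.

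In the integrated stress response branch, downstream of PERK and ATF4, the values were not uniform. Atf5 showed -0.61 ± 0.190 and Chac1, a glutathione-degrading enzyme, -0.50 ± 0.165. Atf4 itself showed -0.15 ± 0.133 and Ddit3, the gene of CHOP, -0.17 ± 0.169. Across both branches, 3 members of the list had a positive difference. They were Sesn2 (0.17 ± 0.207), Ppp1r15a (0.14 ± 0.312), which encodes the phosphatase subunit GADD34, and Dnajb9. Dnajb9, which belongs to the folding branch, stood at almost 0 with an SE of 0.224.

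The mean log2(FPKM + 1) of the 22 genes ran from 5.65 through a median of 5.83 to 6.09 under PBS and from 5.29 through 5.59 to 5.79 under cisplatin. All 8 cisplatin libraries were below the PBS median and 6 below the PBS minimum. The list median was -0.20 in WT and -0.36 in BdP. Xbp1 is also a plasma cell gene, and the summed level of the B and plasma cell markers ran from 26.4 to 2295 FPKM under PBS and 42.5 to 1607 FPKM under cisplatin. The number lower at an unadjusted p below 0.05 was 7 to 12 with any 1 library left out, and fell to 7 with quantile normalisation, 1 with TPM over nuclear genes without haemoglobin and 0 with TPM, a scale on which the median of all genes moved to 0.37. On the last scale the list median lay 0.16 below that of all genes.

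Outside the list, Fkbp11 and Slc25a33 were among the genes with the smallest p on the lower side. Fkbp11, a prolyl isomerase of the secretory pathway, ranged from 6.01 through 10.4 to 15.9 FPKM under PBS and from 5.58 through 6.43 to 7.86 under cisplatin, with overlapping arms and a difference of -0.57 ± 0.135. Slc25a33, a mitochondrial carrier of pyrimidine nucleotides, ranged from 5.70 through 6.47 to 8.12 FPKM under PBS and from 4.55 through 4.78 to 6.17 under cisplatin, with 7 of 8 cisplatin libraries below the PBS minimum (-0.37 ± 0.0777, adjusted p = 0.423).

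Cytosolic heat shock chaperones had 14 of 17 negative differences and a median of -0.12, with 3 lower and 1 higher at an unadjusted p below 0.05 and 0 called. Over all genes, 2.93% were lower and 3.35% higher at that level. The median was 0.0083 in WT and -0.25 in BdP. It was -0.081 without BdP PBS 2, and the number lower was 5 without WT PBS 4 and 2 without BdP PBS 1, BdP cisplatin 2 or BdP cisplatin 4. Hsph1, a nucleotide exchange factor of HSP70, ranged from 8.45 through 18.4 to 28.8 FPKM under PBS and from 8.41 through 11.4 to 15.4 under cisplatin (-0.63 ± 0.170). The small heat shock protein gene Cryab went the other way, at 0.47 ± 0.134. Hspa1b, the inducible HSP70 gene, differed by 0.07 in WT and -2.04 in BdP, and its SE for the pooled value of -0.98 was 0.478.

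Among the lists described, erythroid genes had the largest median difference. Of 13 erythroid genes in the table, 11 passed the filter and had a negative difference, with a median of -1.38. Of these, 7 were lower at an unadjusted p below 0.05, compared with 2.93% of all genes. Hba-a2, an alpha globin gene, ranged from 427 FPKM through a median of 1312 to 4575 under PBS and from 0.260 through 77.6 to 3439 under cisplatin. In 7 of 8 cisplatin libraries it was below the PBS minimum, and BdP cisplatin 3 was the one within the PBS range. The difference was -5.08 ± 1.32 (adjusted p = 0.519). Because alpha and beta globin genes each have near-identical copies, the split of reads within a pair is uncertain.

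Haemoglobin genes together took 0.778% to 15.5% of reads under PBS, with a median of 2.01%, and 0.00199% to 6.46% under cisplatin, with a median of 0.140%. BdP cisplatin 3 held 6.46%, and the next cisplatin library 0.694%. The exact two-sided permutation p was 0.011 for the haemoglobin share and 0.818 for the mitochondrial share. Alas2, the erythroid enzyme of haem synthesis, ranged from 37.5 through 179 to 1087 FPKM under PBS and from 0.0522 through 9.71 to 499.9 under cisplatin (-3.95 ± 1.19). The list median ranged from -1.06 (without WT PBS 2, with 5 genes at an unadjusted p below 0.05) to -1.83 (without BdP cisplatin 3, with 9) when single libraries were left out, and was -1.21 without the 3 libraries rich in mitochondrial reads. The 4 cisplatin libraries with more than 40 Y-gene reads held 0.00199% to 0.128% haemoglobin reads and the other 4 held 0.152% to 6.46%. In the PBS arm the same division overlapped, with 0.778% to 2.85% against 0.819% to 15.5%. In the cisplatin arm the division cannot be told apart from replicate number or mitochondrial share.

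Pros1 and its receptor family are the subject of the series. Pros1 encodes protein S, an anticoagulant cofactor and a ligand of the TAM receptor tyrosine kinases Tyro3, Axl and Mertk, and Gas6 encodes their other ligand. Pros1 stood at 9.77, 4.79, 5.89 and 5.42 FPKM in WT under PBS and at 10.4, 11.5, 7.78 and 11.4 FPKM in WT under cisplatin. The BdP levels under PBS were 1.61, 1.59, 1.58 and 1.24 FPKM, and those under cisplatin 2.39, 2.21, 2.52 and 1.73 FPKM. Every cisplatin library of BdP was above every PBS library of BdP, a separation whose share over all genes was not counted. In WT only WT PBS 1, the library with 76.9% mitochondrial reads, reached the cisplatin range. The pooled difference was 0.49 ± 0.123 (adjusted p = 0.519, exact permutation p = 0.00245), with 0.62 in WT and 0.36 in BdP. At levels as low as those of BdP, the 1 added to FPKM before the log shrinks differences. All 8 BdP libraries lay below all 8 WT libraries, which checks the genotype labels.

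Gas6 ranged from 1.60 through a median of 3.40 to 7.91 FPKM under PBS and from 1.13 through 1.79 to 2.99 under cisplatin. The arms overlapped because WT PBS 4 stood at 1.60 FPKM, and the difference was -0.73 ± 0.210 (adjusted p = 0.594, exact permutation p = 0.00571). Mertk ranged from 0.620 through 2.39 to 3.79 FPKM under PBS and from 0.482 through 1.42 to 2.11 under cisplatin, a difference of -0.47 ± 0.178 (adjusted p = 0.685, exact permutation p = 0.0257). Axl and Tyro3 overlapped more, with -0.93 ± 0.466 (exact permutation p = 0.0935) and -0.25 ± 0.135 (exact permutation p = 0.0784). Ptpn1, the gene of the phosphatase PTP1B, showed -0.02 ± 0.164 (exact permutation p = 0.907). The 2 ligands thus had differences of opposite sign.

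Gas6, Axl and Mertk are also expressed by macrophages. The 21 macrophage markers tested had 17 negative differences, a median of -0.43 and 1 member at an unadjusted p below 0.05, Ms4a7 (-0.75 ± 0.346). The median was between -0.25 and -0.18 when WT PBS 2, WT PBS 3, WT cisplatin 1 or BdP cisplatin 2 was left out, -0.23 with the Y-gene division in the model and -0.70 without the 3 libraries rich in mitochondrial reads. Their summed level ran from 346 to 2517 FPKM under PBS and from 494 to 2056 FPKM under cisplatin, and the part of macrophage content in the ligand and receptor values was not tested.

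Among 20 tested genes of complement and coagulation, 10 had a positive and 10 a negative difference, and the median was 0.01. At an unadjusted p below 0.05 were Pros1, C4b, C1s1 and F3 on the higher side and Procr and Plat on the lower. The tissue factor gene F3, which starts coagulation, averaged 18.3 ± 6.85 FPKM under PBS and 22.3 ± 4.05 under cisplatin (0.33 ± 0.143). C4b, a complement component, ranged from 2.38 through 8.98 to 15.2 FPKM under PBS and from 8.24 through 13.9 to 29.1 under cisplatin, with 3 of 8 cisplatin libraries above the PBS maximum (0.76 ± 0.282). Plat, the plasminogen activator, was low in both arms, at 1.32 ± 0.440 and 0.876 ± 0.444 FPKM. Thbd, the thrombomodulin partner of Procr, did not pass the filter.

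**Figure D3:**
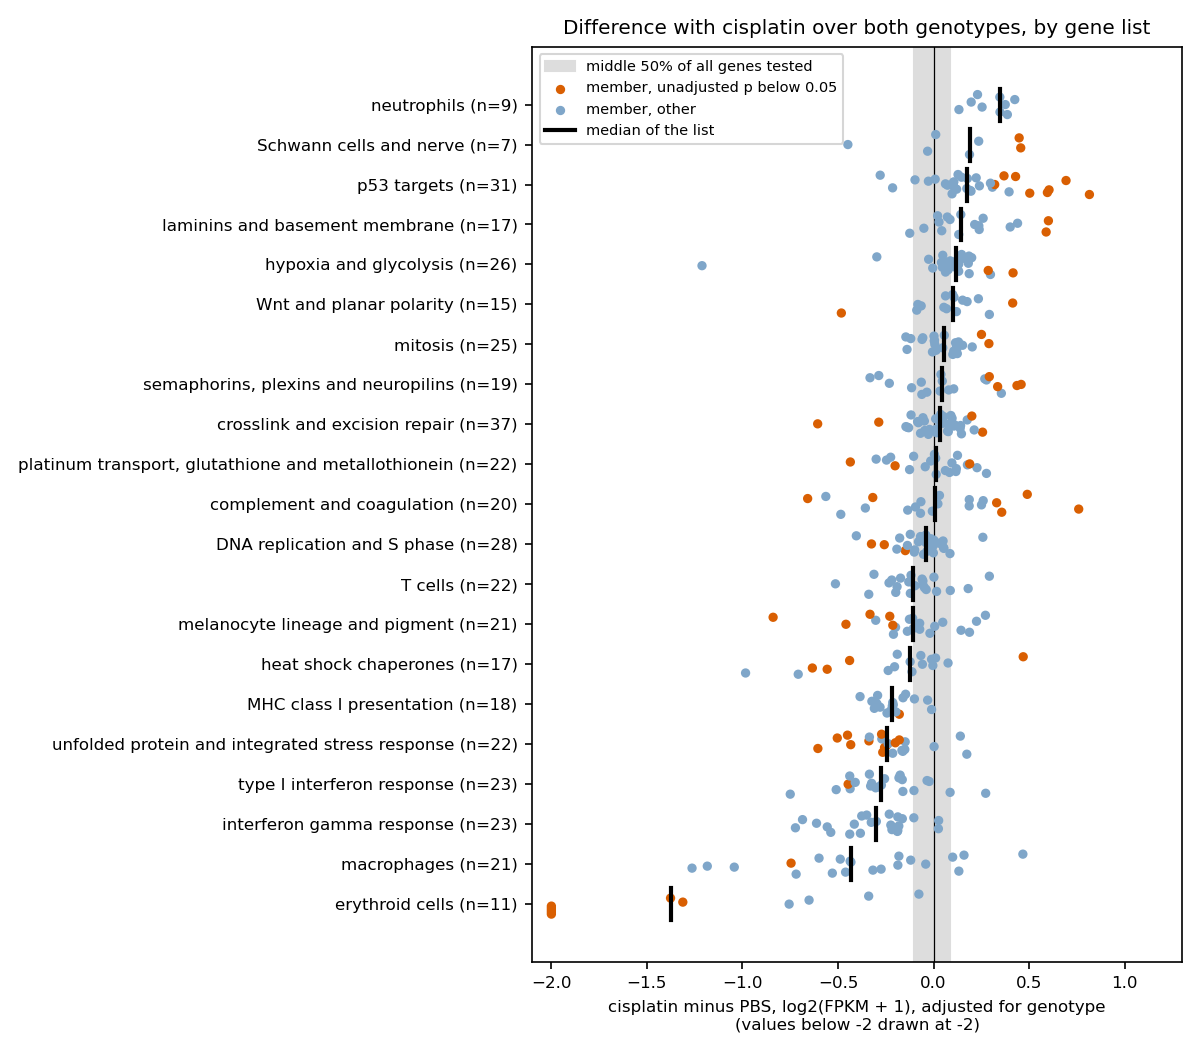
Differences of the tested members of 21 gene lists, cisplatin minus PBS on the log2(FPKM + 1) scale, 1 dot a gene. Orange dots have an unadjusted p below 0.05, the black tick is the list median and the grey band is the middle 50% of all genes, -0.10 to 0.09, and 5 members lower than -2 are drawn at -2. Medians run from -1.38 (erythroid cells) to 0.35 (neutrophils), and those of the stress response genes (-0.24) and the p53 targets (0.18) lie on opposite sides of the band, as do those of other lists.

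Lamb1, the laminin beta 1 chain of basement membranes, ranged from 0.268 FPKM through a median of 1.02 to 2.46 under PBS and from 0.345 through 2.82 to 5.46 under cisplatin. Its levels followed genotype first. In WT the 4 PBS libraries stood at 1.55, 1.82, 2.32 and 2.46 FPKM and the 4 cisplatin libraries at 4.74, 5.21, 5.31 and 5.46 FPKM. These did not overlap, and the share of all genes without overlap within WT was not counted. In BdP the PBS libraries stood at 0.400, 0.268, 0.299 and 0.484 FPKM and the cisplatin libraries at 0.468, 0.906, 0.352 and 0.345 FPKM, with overlap. The pooled difference of 0.59 ± 0.147 (adjusted p = 0.519, exact permutation p = 0.00490) therefore averages 1.03 in WT and 0.14 in BdP, and the interaction was not called (adjusted p = 0.486). All BdP levels were under 1 FPKM, where the 1 added before the log shrinks differences.

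Of 26 laminin and basement membrane genes, 17 passed the filter, 15 with a positive difference, and their median was 0.14. Col18a1, the collagen that releases endostatin, showed 0.60 ± 0.230 and Col4a1, of the main collagen of basement membranes, 0.40 ± 0.195. The laminin chains Lamc1 (0.24 ± 0.152), Lama4 (0.13 ± 0.103) and Lamb2 (0.04 ± 0.116) differed less, and Lama5 had a negative value of -0.12 ± 0.139. Only Lamb1 and Col18a1 were at an unadjusted p below 0.05.

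Other genes with the smallest p on the higher side included matrix and cytoskeletal genes, none of them called (adjusted p 0.423 to 0.519). Loxl2, a lysyl oxidase that crosslinks collagen, ranged from 2.53 through 5.06 to 10.1 FPKM under PBS and from 3.55 through 7.75 to 12.2 under cisplatin, and the pooled arms overlapped (0.48 ± 0.101). Pcolce, an enhancer of procollagen processing, ranged from 11.3 through 16.7 to 25.0 FPKM under PBS and from 18.1 through 27.3 to 43.2 under cisplatin (0.72 ± 0.183). Tubb3, a neuronal beta tubulin found in melanoma, ranged from 30.6 through 40.8 to 57.9 FPKM under PBS and from 45.3 through 61.9 to 83.4 under cisplatin (0.55 ± 0.126). In each of Pcolce and Tubb3, 4 of 8 cisplatin libraries exceeded the PBS maximum.

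Scrg1, a gene of glial and mesenchymal cells, had the largest difference of this set, 1.18 ± 0.306. It ranged from 0.731 through 5.61 to 8.76 FPKM under PBS and from 4.00 through 12.5 to 22.9 under cisplatin, and 5 cisplatin libraries lay above the PBS maximum. Rgmb, a co-receptor of bone morphogenetic proteins, separated most in count, with 7 of 8 cisplatin libraries above the PBS maximum of 4.60 FPKM (0.68 ± 0.178). Hip1, an endocytic adaptor (0.45 ± 0.117), and Fmnl2, a formin of actin assembly (0.34 ± 0.0887), each had 6 of 8. Ndrg2 (0.50 ± 0.123) had 4 of 8, and its difference was 0.80 in WT and 0.19 in BdP. Its BdP levels were low as well, at 0.954 to 1.78 FPKM. On the lower side were Igsf8, a tetraspanin partner (-0.50 ± 0.113), and L3mbtl2, of a Polycomb-related complex (-0.30 ± 0.0745).

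Schwann cell and nerve genes, a lineage that shares its neural crest origin with melanocytes, had 5 of 7 positive differences and a median of 0.19. Mbp, of myelin, and Erbb3, a receptor of neuregulin, were at an unadjusted p below 0.05 with 0.46 ± 0.166 and 0.45 ± 0.169. Among semaphorins, plexins and neuropilins, guidance molecules of axons and vessels, 12 of 19 were positive with a median of 0.05. At that level 4 were higher (Sema6b, Plxnd1, Sema4g and Sema6a), compared with 3.35% of all genes. The number higher was 2 to 6 with any 1 library left out. Without WT PBS 1 it was 2, with 10 of 19 positive and a median of 0.0036. Without the 3 libraries rich in mitochondrial reads it was also 2. In the Wnt list, 11 of 15 were positive with a median of 0.10. Axin2, the feedback inhibitor that reads out Wnt signalling, went the other way, from a median of 1.91 FPKM under PBS (1.11 to 2.65) to 0.997 under cisplatin (0.511 to 1.97), with -0.48 ± 0.156. Those cisplatin libraries with more than 40 Y-gene reads had 0.511 to 0.791 FPKM of Axin2 and the others 1.20 to 1.97, whereas in the PBS arm the same division overlapped (1.11 to 2.65 against 1.81 to 2.37). In the cisplatin arm the division cannot be told apart from replicate number, mitochondrial share or haemoglobin share. The share of all genes that it separates was not counted.

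Melanocyte genes were lower for some members only. Of 21 tested, 15 had a negative difference, and the median was -0.11. At an unadjusted p below 0.05, 5 were lower, compared with 2.93% of all genes, and 0 were higher. Of the list, 0 were called. The number lower was 2 without WT PBS 3, BdP PBS 4 or BdP cisplatin 2, and 3 without WT cisplatin 1, WT cisplatin 3 or BdP PBS 3. Trpm1, a melanocyte cation channel, ranged from 17.8 FPKM through a median of 49.6 to 77.1 under PBS and from 16.6 through 23.7 to 43.3 under cisplatin, with a difference of -0.84 ± 0.237 (adjusted p = 0.554). Slc24a5, a melanosomal cation exchanger that affects pigment, ranged from 75.0 through 107 to 136 FPKM under PBS and from 59.5 through 74.0 to 107 under cisplatin, and 4 cisplatin libraries lay below the PBS minimum (-0.46 ± 0.112). The arms overlapped in both genes. The other 3 were Slc45a2 (-0.21 ± 0.0917), Gpr143 (-0.23 ± 0.0989) and Met (-0.33 ± 0.144).

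The lineage regulator Mitf averaged 63.7 ± 15.3 FPKM under PBS and 63.1 ± 16.2 under cisplatin (-0.02 ± 0.175). Tyr, the rate-limiting enzyme of melanin synthesis, showed 0.14 ± 0.113, Mlana 0.01 ± 0.142, Tyrp1 -0.07 ± 0.156 and Pmel -0.20 ± 0.157. With quantile normalisation the list median was -0.02. Mitf differed by 0.49 in WT and -0.53 in BdP, and that contrast was not called.

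Genes of the repair of crosslinks and bulky lesions were close to the median of all genes. Of 37 tested, 23 were positive and 14 negative, with a median of 0.03, and 2 in each direction had an unadjusted p below 0.05. That was 10.8% of the list, compared with 6.28% of all genes. Fan1, a nuclease of crosslink repair, and Ercc3, a helicase of nucleotide excision repair and TFIIH, were on the higher side (0.20 ± 0.0866 and 0.26 ± 0.113). Brca1 and Rad51c, of homologous recombination, were on the lower side (-0.61 ± 0.242 and -0.29 ± 0.0975). Fancd2, the hub of the Fanconi anaemia pathway, showed 0.14 ± 0.109.

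The list of platinum transport, glutathione and metallothionein genes had a median of 0.01, with 1 gene higher (Gsr) and 2 lower (Gsta4 and Gclm) at an unadjusted p below 0.05. Slc31a1, the copper transporter that can import cisplatin, averaged 24.3 ± 4.74 FPKM under PBS and 24.2 ± 1.78 under cisplatin (0.01 ± 0.101). Gclm, a subunit of the enzyme that starts glutathione synthesis, showed -0.20 ± 0.0886. Apoptosis regulators had 12 positive and 12 negative differences and 0 at an unadjusted p below 0.05.

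Cell cycle lists had medians near that of all genes. Of 28 genes of DNA replication and S phase, 21 had a negative difference, with a median of -0.04 and 3 lower at an unadjusted p below 0.05, namely Mcm7 (-0.15 ± 0.0535), Gins1 (-0.32 ± 0.140) and Cdc45 (-0.26 ± 0.119), all of the replicative helicase. Of 25 mitotic genes, 19 had a positive difference, with a median of 0.06 and 2 higher, Anln (0.25 ± 0.112) and Kif20a (0.29 ± 0.132), both of cytokinesis. The share at an unadjusted p below 0.05 was 8% of the mitotic and 10.7% of the replication list, compared with 6.28% of all genes. The mitotic median was -0.02 in WT and 0.15 in BdP, that of the replication list -0.06 and -0.04, and the 2 lists were not compared by a test. The number of mitotic genes higher was 0 to 5 with any 1 library left out (0 without WT PBS 1, WT cisplatin 1 or 2, BdP PBS 2, or BdP cisplatin 1, 2 or 4; 5 without WT PBS 4). Both pooled medians lay inside the middle 50% of all genes. Hypoxia and glycolysis genes had 22 of 26 positive differences and a median of 0.12, with Adm, a vasodilator peptide induced by hypoxia, at 0.42 ± 0.135 and the hexokinase Hk1 at 0.29 ± 0.116. Without the 3 libraries rich in mitochondrial reads, Adm was called higher (0.61 ± 0.0834, adjusted p = 0.0398).

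Immune genes differed between libraries far more than between arms. Interferon gamma response genes had 21 of 23 negative differences and a median of -0.30, type I interferon response genes 21 of 23 and -0.27, and MHC class I presentation genes 18 of 18 and -0.21. At an unadjusted p below 0.05 were 0, 1 (Mx1, an antiviral GTPase, -0.45 ± 0.189) and 1 (Calr) of them. Within the interferon gamma list the median was -0.82 in WT and 0.13 in BdP. The mean log2(FPKM + 1) of that list spanned 0.69 to 3.99 under PBS and 1.11 to 3.67 under cisplatin, so the arms overlapped nearly in full.

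The medians moved with single tumours in both directions. Without WT PBS 3 they were -0.03 for the interferon gamma list, -0.07 for type I interferon and -0.02 for MHC class I presentation, and these were the values closest to 0 with 1 library left out. Without WT PBS 4 they were -0.47, -0.42 and -0.44, the furthest from 0, with 5 type I interferon genes lower at an unadjusted p below 0.05. Leaving out WT cisplatin 1 or BdP PBS 1 also moved all 3 by over 1.5 times, to between -0.18 and -0.13. T cell markers had 17 of 22 negative differences, with a median of -0.11 that ranged from -0.34 (without BdP PBS 3) to 0.11 (without WT PBS 3). With the Y-gene division in the model the interferon gamma median was -0.13. Of 17 neutrophil genes 9 passed the filter, and these were positive in 9 of 9, compared with 48.0% of all genes. None of the 9 was at an unadjusted p below 0.05. Their median of 0.35 was 0.10 without WT PBS 4 and 0.05 without the 3 libraries rich in mitochondrial reads. The neutrophil median was 0.67 in WT and -0.10 in BdP.

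**Figure D4:**
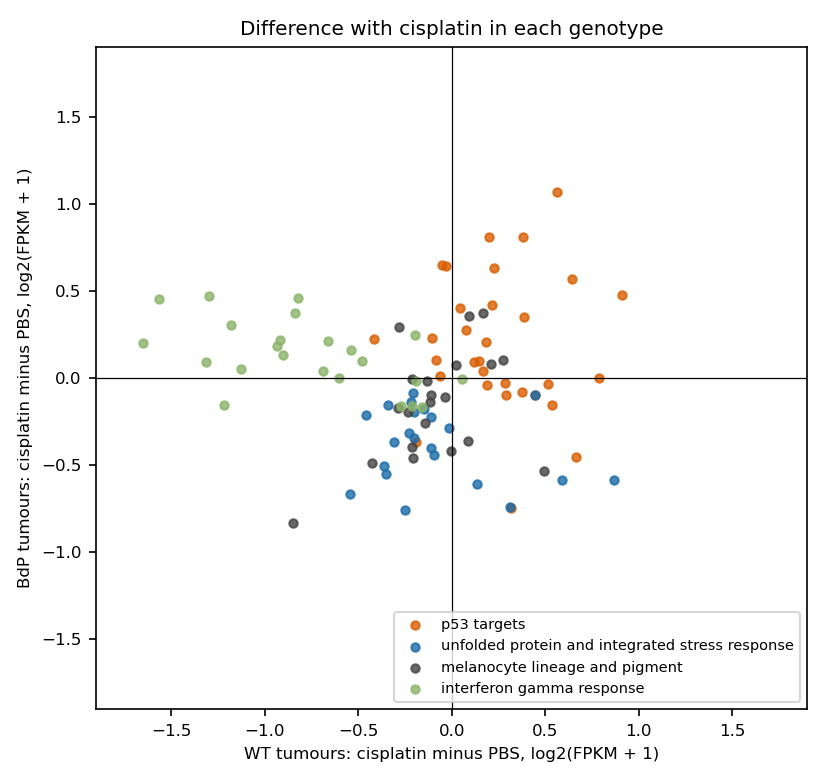
Difference between cisplatin and PBS in WT (x axis) and in BdP (y axis), log2(FPKM + 1) units, for the tested members of 4 gene lists, 1 dot a gene. The median of the p53 targets is 0.22 in WT and 0.10 in BdP, that of the stress response genes -0.20 and -0.36, and that of the interferon gamma genes -0.82 and 0.13.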

How the data were processed

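RNA of 16 tumours was sequenced after NEBNext Ultra library preparation, per the labels' protocols. The deposited table holds FPKM for 54532 genes, made by the authors. The submitters' processing notes name CASAVA, the aligner HISAT2 (2.0.5), the read counter featureCounts (1.5.0-p3) and the genome GRCm38 (mm10). Whether counting used strand is not given in the sources used here. Multiplied by gene length, at least 99.9963% of the values of each library were whole multiples of 1 step (tolerance 0.1 read), which gave the reads per gene. The step implied the median-of-ratios size factor (ratio 1), so values were not rescaled. A set of 27 symbols turned to dates by a spreadsheet was restored from the identifiers with GENCODE M21.

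Genes reaching 1 FPKM in 4 or more libraries were fitted on log2(FPKM + 1) in limma 3.58.1 (R 4.3.3), with treatment and genotype as terms, a mean-variance trend and Benjamini-Hochberg adjustment over the 12319 genes, called below 0.05. The pseudocount shrinks differences of low genes. Interactions and within-genotype values came from 4 group means. Single values were compared by exact permutation within genotype (4900 arrangements, 10 tests). The procedure was tested on simulated data. Named were called genes, for each direction the 10 genes of smallest p whose higher arm averaged 5 FPKM or more, up to 4 members of smallest p per list described, and 8 genes always reported. Genes with arms apart were named after their values were seen. The comparison, members and gene lists were chosen with earlier results of these data known. Lists are described by counts and medians only. Alternatives changed the pseudocount, filter, scaling, model, weights and libraries used.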

Additional observations from a re-analysis of the deposited data

Results flagged for a closer look

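In 7 cases a single library stood apart from the rest of their arm. The number examined was 170 sets of 8 libraries, of which 7 (4.12%) held such a library, where about 5% would by chance. The mitochondrial share of reads was 76.9% in WT PBS 1 and 2.03% to 5.06% in the other PBS libraries. The same library had the lowest level of Ercc3, a helicase of excision repair, at 6.86 FPKM (12.4 to 17.1 in the others), and the highest of Pdia3, a disulfide isomerase, at 235.5 FPKM (170.0 to 195.1). BdP cisplatin 2 had the lowest Pdia3 of its arm, 145.8 FPKM against 170.7 to 180.8. WT PBS 4 had the lowest Mertk, 0.620 FPKM against 2.13 to 3.79, and the lowest Brca1, 7.17 FPKM against 15.1 to 25.7. BdP cisplatin 3 had the lowest Trp53inp1 of the cisplatin arm, 4.84 FPKM against 9.83 to 15.5, and it was also the cisplatin library with 6.46% haemoglobin reads.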

How the results depend on the processing

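The count of 1 called gene depended on the processing. It was 0 with no filter, with TPM over nuclear genes without haemoglobin, with 4 group means and with the replicate block, 5 (all lower: Hbb-bs, Hba-a1, Hbb-bt, Hba-a2 and Alas2) with TPM, 2 (1 higher, Adm) without the 3 libraries rich in mitochondrial reads, and 3 (2 higher, D630003M21Rik and Nr5a1, both near 0 in BdP) with voom on the recovered reads, which also called 1 interaction (Slc40a1). Leaving out each library in turn gave 0 to 2 called genes, 0 higher, 0 to 2 lower and 0 to 1 interactions. Procr was negative in all alternatives run. Replicate numbers did not pair the libraries: 9 of 24 same-numbered pairs had a correlation over 0.1, with a range of -0.61 to 0.42, and 3 of 16 libraries correlated best with their own number. With the replicate block, the adjusted p of Procr was 0.0616 and 759 genes had an unadjusted p below 0.05. With TPM, where the median of all genes was 0.37, some lower genes turned positive: Slc24a5 0.015, Creld2 0.017, L3mbtl2 0.13, Dnajc3 0.21, Pdia6 0.14, Dnajb1 0.017, Mcm7 0.31, Gsta4 0.036, Gins1 0.098, Calr 0.30, Slc45a2 0.27, Gpr143 0.20, Gclm 0.19, Cdc45 0.16, P4ha1 0.18, Pdia3 0.33, Tyro3 0.082, Srxn1 0.21 and Ptpn1 0.39. Over nuclear genes only, Pdia3 was 0.0023 and Ptpn1 0.12. Ptpn1 ranged from -0.088 (without BdP PBS 3) to 0.095 (without WT PBS 3) when single libraries were left out, and was 0.013 with the Y-gene division, 0.0043 without WT cisplatin 1, 0.0048 without BdP PBS 1, 0.043 without BdP PBS 2 and 0.028 without BdP cisplatin 4. The cause of these reversals was not tested. Among the other values of named genes, 2270 kept direction and side of the threshold, 17 lost it and 6 gained it. Of the list medians, 1228 moved by less than the spread between libraries and 32 by more. The division by Y-gene reads was chosen after seeing the data. WT PBS 1, with 2322202 reads outside mitochondrial genes, limits the precision of low genes.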
